A study of Ovis aries with 24 samples.

Results

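The expression of 10 genes of bile acid and foreign-compound handling was followed in 2 tissues of preterm lambs: liver, and PVWM, the periventricular white matter of the brain. They are the nuclear receptors NR1H4, NR1I2, NR1I3 and NR0B2, the membrane transporters SLC10A1, ABCB11, ABCC2, ABCC3 and SLC51A, and the conjugating enzyme BAAT. The members were chosen by gene symbol from the 27716 rows of each count table. Of the 10 members, 9 were found by symbol, and the row of BAAT carried only a locus number, which RefSeq gives as BAAT. All 10 passed the filter on low counts in liver, and 5 passed it in PVWM.

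Hepatocytes make bile acids, join them to glycine or taurine, pump them into the bile canaliculus and take them up again from portal blood. NR1H4 (FXR) is the receptor that bile acids bind, and among its known targets are NR0B2 (SHP), a repressor without a DNA-binding domain, and the export pump ABCB11. NR1I2 (PXR) and NR1I3 (CAR) are the receptors that answer to drugs, steroids and bile acids, and they control enzymes and transporters that clear such compounds.

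Messenger RNA was sequenced in 12 liver and 12 PVWM libraries, in 3 groups of 4 lambs per tissue. Within a tissue each library came from a separate animal. The 24 libraries came from 13 animals, 11 of which gave both tissues. Unventilated lambs (animals 057, 058 and 060 in both tissues, 059 in liver only and 061 in PVWM only) had no ventilation, no surfactant and no budesonide. Surfactant lambs (007, 032, 049 and 051) were mechanically ventilated and received Poractant alpha, a porcine lung surfactant, into the trachea at 2.5 mL/kg. Budesonide lambs (031, 048, 050 and 054) were treated in the same way, with the glucocorticoid budesonide added to the surfactant at 0.25 mg/kg. No group was ventilated without surfactant, so ventilation and surfactant cannot be told apart. Unventilated lambs were 127 days (057 and 058, males) or 128 days of gestation. Ventilated lambs were 126-day females, except 1 male of 127 days in each group (007 and 054), so age and ventilation are largely confounded. Each group enters 2 of the 3 comparisons made in a tissue, so the comparisons share samples and are not independent.

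Libraries held 16.1 to 23.2 M counts (M, 1e+06) in liver and 14.9 to 17.5 M in PVWM. Levels are given as scaled CPM (counts per 1e+06 counts of the tested genes, after library scaling), which are not divided by gene length, so levels of different genes are not compared. Hepatocyte markers (9 of 10 in the table, all detected in liver) summed to 204009 to 265635 CPM in unventilated, 229009 to 269208 in surfactant and 182638 to 247358 in budesonide livers. In PVWM the same markers summed to 108 to 263 CPM, where 5 astrocyte markers summed to 3611 to 5864 CPM. Other cells' markers also moved in liver: 5 neutrophil markers summed to 25.9 to 84.2 CPM in unventilated, 89.4 to 268 in surfactant and 78.0 to 125 in budesonide livers, and 7 endothelial markers to 495 to 667, 736 to 968 and 726 to 897 CPM. From surfactant to budesonide, 3 of the 7 endothelial markers were called lower and none higher (edgeR adjusted p under 0.05). Of all genes, 7.85% were lower there. The part of these other cells in the results was not tested. On the leading principal component of the liver, which held 54.6% of the variance, unventilated animals lay at 87.4 to 99.7, surfactant animal 007 at 12.9 and the other ventilated animals at -80.4 to -35.4. Animal 007 therefore stood apart from its group. In bulk tissue, fewer cells of a type and less RNA per cell cannot be told apart.

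In liver, 9 of the 10 genes had their highest group mean in unventilated, an intermediate mean in surfactant and the lowest mean in budesonide lambs. Among all 16824 genes tested, 24% had this order. Between surfactant and unventilated lambs 7 members were lower and 1 was higher (edgeR adjusted p under 0.05, the threshold for every call here), against 19.5% of all genes lower and 21.6% higher. Between budesonide and surfactant lambs 6 were lower and none higher, against 7.85% of all genes lower. Between budesonide and unventilated lambs 9 were lower, against 23.7% of all genes. SLC51A was the member outside this order.

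**Figure D1:**
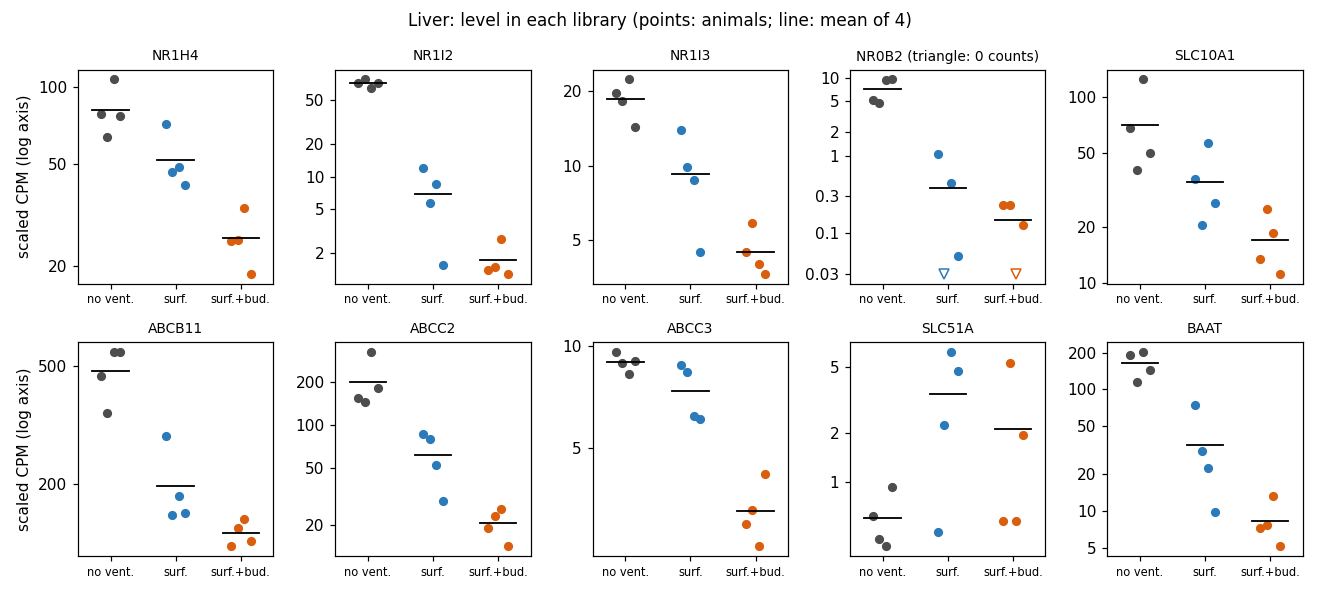
Scaled CPM (log axis) of the 10 genes in each liver library, by group (no vent., unventilated; surf., surfactant; surf.+bud., surfactant with budesonide). Points are animals, lines are means of 4, and open triangles mark libraries with 0 counts. Apart from SLC51A, the budesonide animals of each gene lie below all 4 unventilated animals.

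NR1I2, the pregnane X receptor, was high in all unventilated livers and low in all ventilated ones. The 4 unventilated livers (057, 058, 059, 060) held 72.0, 77.8, 64.7 and 72.4 CPM. The surfactant livers (007, 032, 049, 051) held 12, 5.76, 8.5 and 1.54 CPM. The budesonide livers (031, 048, 050, 054) held 1.40, 1.49, 2.68 and 1.29 CPM. Every ventilated animal was far below every unventilated one, and surfactant animal 051 lay within the budesonide range. The unventilated animals varied little, with a coefficient of variation of 7.46%, against 63.4% in surfactant animals. With surfactant NR1I2 fell by 3.37 ± 0.45 (log2, SE; n = 4 per group; edgeR adjusted p = 0.000183), and the surfactant mean was 9.67% of the unventilated mean. With budesonide it was lower again than with surfactant, by a log2 change of -2.01 ± 0.47 (edgeR adjusted p = 0.018). That call was lost when only both ventilated groups were fitted (edgeR adjusted p = 0.0608), without budesonide animal 031 (0.0561) and without 048 (0.0532). Against unventilated lambs the budesonide change was -5.38 ± 0.51 (edgeR adjusted p = 1.13e-05), a 41.9-fold difference of the means.

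NR1I3, the constitutive androstane receptor, is the close relative of NR1I2. Its levels were 19.7, 18.2, 22.2 and 14.3 CPM in unventilated, 14.0, 9.84, 8.72 and 4.48 in surfactant and 4.48, 5.85, 4.01 and 3.67 in budesonide livers, in the same animal order. Surfactant and unventilated animals did not overlap, although 007 at 14.0 CPM nearly reached 060 at 14.3. Surfactant animal 051 fell inside the budesonide range. NR1I3 fell by 1.01 ± 0.29 with surfactant (log2, SE; edgeR adjusted p = 0.0142) and by a further 1.04 ± 0.29 with budesonide (edgeR adjusted p = 0.0396). The latter call was lost under 10 of 14 alternatives, among them those without surfactant animal 007 (edgeR adjusted p = 0.0708) or budesonide animal 031 (0.0924), with the highest adjusted p at 0.0968. The 2 receptors did not move in proportion: a liver held 2.91 to 5.07 NR1I2 counts per NR1I3 count in unventilated, 0.345 to 0.975 in surfactant and 0.255 to 0.667 in budesonide lambs, with no overlap between ventilated and unventilated animals.

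NR1I3 lies in RefSeq on ground that overlaps TOMM40L, a gene of the mitochondrial import family, and APOA2, an apolipoprotein. Whether the counting used strand is not given in the sources used here, so reads from the shared stretches cannot be assigned with certainty. TOMM40L had a liver mean of 28.4 ± 2.72 CPM (SD, n = 4) in unventilated, 11.6 ± 3.92 in surfactant and 8.09 ± 1.13 in budesonide lambs. It fell by 1.30 ± 0.23 (log2, SE) with surfactant (edgeR adjusted p = 0.000965), a comparison in which NR1I3 also fell. From surfactant to budesonide, where NR1I3 was called, TOMM40L was not (-0.51 ± 0.23; edgeR adjusted p = 0.155). APOA2 was not called by edgeR in either step (-0.18 ± 0.19 and -0.56 ± 0.19; edgeR adjusted p = 0.463 and 0.0719), but DESeq2 called the latter (adjusted p = 0.0265). The ratio of NR1I3 to TOMM40L counts was 0.534 to 0.783 in unventilated, 0.685 to 0.919 in surfactant and 0.464 to 0.81 in budesonide livers, ranges that overlap. The part that shared reads play in the NR1I3 values was not tested.

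NR1H4, the bile acid receptor itself, was called lower with surfactant and lower again with budesonide, and the surfactant change was the smaller of these. Unventilated livers held 78.0, 63.7, 107 and 77.2 CPM, surfactant livers 71.3, 46.6, 48.9 and 41.5, and budesonide livers 25.1, 25.2, 33.6 and 18.6. Surfactant animal 007 lay inside the unventilated range, and the budesonide animals were below all others. The surfactant change was -0.65 ± 0.22 (log2, SE; edgeR adjusted p = 0.0338). That call was lost under 7 of 14 alternatives, including the fits without surfactant animal 032 (edgeR adjusted p = 0.058), 049 (0.0529) or 051 (0.0666) and without unventilated animal 057 (0.0583), 059 (0.104) or 060 (0.0559). Budesonide lowered NR1H4 relative to surfactant by a log2 change of -1.02 ± 0.22 (edgeR adjusted p = 0.0139), a call kept under all 14 alternatives. Against unventilated lambs the change was -1.67 ± 0.23 (edgeR adjusted p = 0.000108).

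NR0B2, the target and partner of NR1H4, was nearly absent in ventilated livers. Its raw counts were 107, 104, 159 and 215 in unventilated, 19, 0, 8 and 1 in surfactant and 4, 4, 0 and 2 in budesonide livers. In CPM the unventilated mean was 7.21 ± 2.62 (SD, n = 4), the surfactant mean 0.388 ± 0.488 and the budesonide mean 0.148 ± 0.110. Every ventilated liver was below every unventilated one, and the ventilated groups overlapped. NR0B2 fell by 4.19 ± 0.76 with surfactant (log2, SE; edgeR adjusted p = 0.00114) and changed by -5.54 ± 0.86 from unventilated to budesonide lambs (edgeR adjusted p = 0.00026). Leaving out surfactant animal 007, which held 19 of the 28 surfactant counts, took the former value to -5.38. The change from surfactant to budesonide was -1.35 ± 0.97 (edgeR adjusted p = 0.373), which at 0 to 19 counts per library was not detectable at this depth. Per NR1H4 count, NR0B2 gave 0.066 to 0.124 counts in unventilated, 0 to 0.0148 in surfactant and 0 to 0.00926 in budesonide livers, with no overlap between ventilated and unventilated animals.

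SLC10A1 (NTCP) is the sodium-coupled carrier that takes conjugated bile acids from blood into the hepatocyte. Unventilated livers held 67.9, 40.4, 124 and 50.1 CPM, surfactant livers 36.0, 20.5, 56.7 and 27.1, and budesonide livers 13.4, 25.1, 18.6 and 11.2. Neighbouring groups overlapped, but budesonide and unventilated animals did not. The surfactant change was -1.01 ± 0.39 (log2, SE; edgeR adjusted p = 0.0542) and the budesonide change relative to surfactant -1.04 ± 0.39 (edgeR adjusted p = 0.101), neither of which passed the threshold. DESeq2 called both (adjusted p = 0.0344 and 0.0467). From unventilated to budesonide lambs SLC10A1 fell by 2.05 ± 0.40 (edgeR adjusted p = 0.00135). In RefSeq it overlaps SRSF5, a splicing factor, whose liver means were 103, 121 and 113 CPM in unventilated, surfactant and budesonide lambs, with no change called in any comparison.

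ABCB11 (BSEP), the canalicular pump for bile salts, held 462, 347, 556 and 557 CPM in unventilated livers. Surfactant livers held 289.9, 158, 183 and 161, and budesonide livers 124, 142, 154 and 129. The 3 groups did not overlap at all, with surfactant animal 007 the closest to the unventilated range. ABCB11 fell by 1.28 ± 0.22 with surfactant (log2, SE; edgeR adjusted p = 0.000782). Although the ranges were separate, the change from surfactant to budesonide, -0.53 ± 0.22, was not called (edgeR adjusted p = 0.122), and without animal 007 it was -0.29. The change from unventilated to budesonide was -1.81 ± 0.22 (edgeR adjusted p = 5.1e-05).

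ABCC2 (MRP2) is the canalicular exporter of conjugated bilirubin, glutathione conjugates and sulphated bile acids. Its levels were 155, 145, 328 and 182 CPM in unventilated, 86.8, 79.9, 52.2 and 29.4 in surfactant and 19.0, 23.2, 25.8 and 14.2 in budesonide livers. The groups formed 3 separate steps. ABCC2 fell by 1.71 ± 0.35 with surfactant (log2, SE; edgeR adjusted p = 0.00248) and by 1.59 ± 0.35 more with budesonide (edgeR adjusted p = 0.0144). The last call was kept under all 14 alternatives. From unventilated to budesonide lambs the change was -3.30 ± 0.37 (edgeR adjusted p = 3.42e-05), a 9.85-fold difference of the means. A liver held 0.327 to 0.59 ABCC2 counts per ABCB11 count in unventilated, 0.183 to 0.506 in surfactant and 0.11 to 0.168 in budesonide lambs, and the budesonide range was the only one that lay apart from the others.

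ABCC3 (MRP3) sits on the opposite, basolateral side of the cell and returns conjugates to blood. It held 9.63, 8.90, 8.29 and 9.06 CPM in unventilated, 8.78, 8.40, 6.22 and 6.07 in surfactant and 2.97, 3.27, 2.56 and 4.18 in budesonide livers. Unventilated and surfactant animals overlapped, and all 4 budesonide animals were below both groups. No surfactant change was called (-0.28 ± 0.20, log2, SE; edgeR adjusted p = 0.259), whereas budesonide lowered ABCC3 relative to surfactant by a log2 change of -1.18 ± 0.20 (edgeR adjusted p = 0.00458), a call kept under all 14 alternatives. The change from unventilated to budesonide was -1.47 ± 0.20 (edgeR adjusted p = 0.000115). The difference between the surfactant step and the budesonide step of ABCC3 was not tested. A liver held 0.0253 to 0.0623 ABCC3 counts per ABCC2 count in unventilated, 0.101 to 0.207 in surfactant and 0.0991 to 0.294 in budesonide lambs. The surfactant and budesonide ranges overlapped, and both lay above the unventilated range.

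SLC51A codes for the alpha chain of the organic solute transporter, a basolateral bile acid exporter that works only as a dimer with the beta chain, SLC51B. It was low: 13, 10, 7 and 21 raw counts in unventilated, 9, 37, 111 and 92 in surfactant and 10, 92, 10 and 30 in budesonide livers. In CPM these were 0.626, 0.456, 0.412 and 0.938, then 0.500, 2.22, 6.16 and 4.73, then 0.582, 5.27, 0.582 and 1.93. Surfactant animal 007 and budesonide animals 031 and 050 stayed in the unventilated range, and the other ventilated animals were above it. The surfactant change was 2.46 ± 0.80 (log2, SE; edgeR adjusted p = 0.0265). It lost its call under 7 of 14 alternatives, among them those without surfactant animal 049 (edgeR adjusted p = 0.083) or 051 (0.0646), without unventilated animal 057 (0.0594), 058 (0.0643) or 059 (0.0628), and with sex as a covariate (0.0739). The budesonide changes, 1.76 ± 0.80 against unventilated and -0.70 ± 0.74 against surfactant lambs, were not called (edgeR adjusted p = 0.0876 and 0.552).

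SLC51B, named here after its values were seen, went the other way. Unventilated livers held 13.5, 18.0, 24.4 and 22.6 CPM, surfactant livers 6.50, 2.94, 3.89 and 3.5, and budesonide livers 2.44, 2.41, 3.14 and 1.48. All ventilated livers were below all unventilated ones. SLC51B fell by 2.22 ± 0.29 with surfactant (log2, SE; edgeR adjusted p = 0.000165), and this call was kept under all 14 alternatives. With surfactant the partner chains of 1 transporter were therefore called in opposite directions in the same livers.

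SLC51A is also expressed in bile duct cells. The summed level of 8 cholangiocyte markers, all detected, was 45.5 to 59.5 CPM in unventilated, 82.3 to 1897 in surfactant and 184 to 774 in budesonide livers. Animal 007 was the lowest surfactant animal for both this sum and SLC51A, and budesonide animals 031 and 050 were the lowest of their group for both. SPP1, which is also made by other cells, had a mean of 2.56 CPM in unventilated and 917 CPM in surfactant livers. It held most of the sum in all 8 ventilated livers (in 007, 42.5 of 82.3 CPM) and little of it in the 4 unventilated livers, at 1.92 to 2.94 CPM. The defining markers KRT19 and EPCAM were not called in any of the 3 comparisons. The part of bile duct cells in the SLC51A values was not tested.

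**Figure D2:**
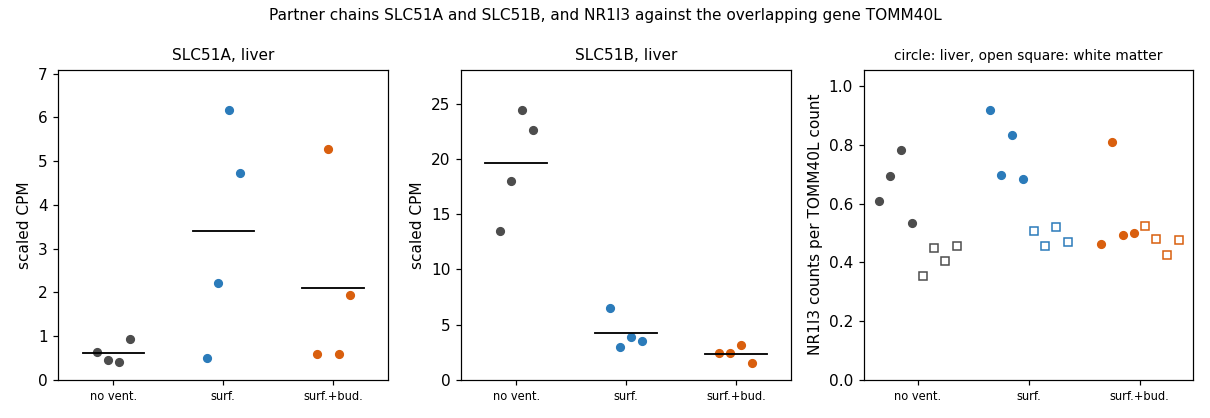
Scaled CPM of SLC51A (left) and SLC51B (middle) in each liver library, and NR1I3 counts per TOMM40L count (right; circles liver, open squares PVWM), by group. Points are animals and lines are means of 4. SLC51A is above 2 CPM only in ventilated animals, SLC51B is above 13 CPM only in unventilated animals, and the NR1I3 ratio overlaps between groups in both tissues.

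BAAT joins bile acids to glycine or taurine before export. Unventilated livers held 192, 116, 204 and 145 CPM, surfactant livers 74.8, 30.8, 22.6 and 9.88, and budesonide livers 7.28, 7.74, 13.2 and 5.14. All ventilated animals were below all unventilated ones, and surfactant animal 051 lay within the budesonide range. BAAT fell by 2.25 ± 0.50 with surfactant (log2, SE; edgeR adjusted p = 0.00363) and by 2.05 ± 0.50 more with budesonide (edgeR adjusted p = 0.022). The latter call was lost in the fit of both ventilated groups alone (edgeR adjusted p = 0.0608) and without budesonide animal 031 (0.0669), 048 (0.0612) or 054 (0.0506). From unventilated to budesonide lambs the change was -4.30 ± 0.55 (edgeR adjusted p = 7e-05), a 19.7-fold difference of the means.

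**Figure D3:**
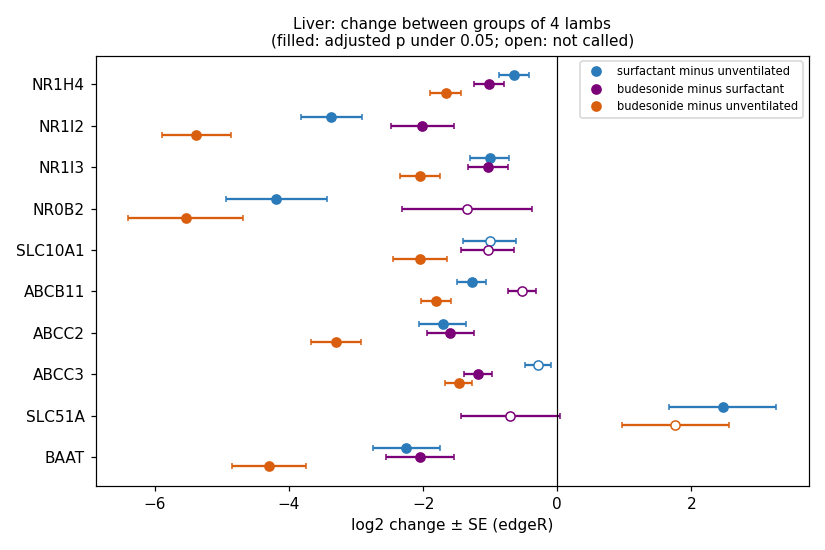
Log2 change (horizontal axis) with its edgeR standard error for each gene in liver, for the 3 comparisons of groups of 4 lambs. Filled points passed the adjusted p threshold of 0.05 and open points did not. All changes except those of SLC51A against unventilated lambs lie left of 0, and those of NR1I2, NR0B2 and BAAT reach the lowest values.

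Across the list, the median log2 change was -1.15 with surfactant, against -0.02 over all genes tested. It was -1.11 from surfactant to budesonide (all genes, -0.01) and -2.05 from unventilated to budesonide (all genes, 0.00). Groups did not overlap, with the later group lower, for 6, 4 and 9 members respectively, where the same held for 18.8, 8.1 and 25.1% of all genes. The receptors NR1I2 and NR0B2 and the enzyme BAAT kept 2.39, 2.05 and 5.08% of their unventilated mean in budesonide lambs. ABCC3 kept 36.2%, NR1H4 31.5%, ABCB11 28.6%, NR1I3 24.2%, SLC10A1 24.1% and ABCC2 10.2%.

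Some animals were often the highest or lowest of their group. Over the 8 receptors and transporters other than SLC51A, surfactant animal 007 was the highest of its group for 7. Animal 051 was the lowest for 5 and 032 for the other 3. Surfactant animal 051 kept 2.15% of the unventilated mean of NR1I2 and 6.02% of that of BAAT, where 007 kept 16.7 and 45.6%. Animal 007 kept 97.9% of the unventilated mean of ABCC3 and 87.5% of that of NR1H4. In the budesonide group 054 was the lowest for 5 of the 8 and the highest for 1, and 050 was the highest for 4 and the lowest for 2. Animal 031 was the highest for 1 and the lowest for 1. Without animal 007, 8 members were called between surfactant and unventilated lambs (47.4% of all genes, either direction, against 41.1% with it). Between budesonide and surfactant lambs 5 were called without it (16.5% of all genes, against 11.9% with it).

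**Figure D4:**
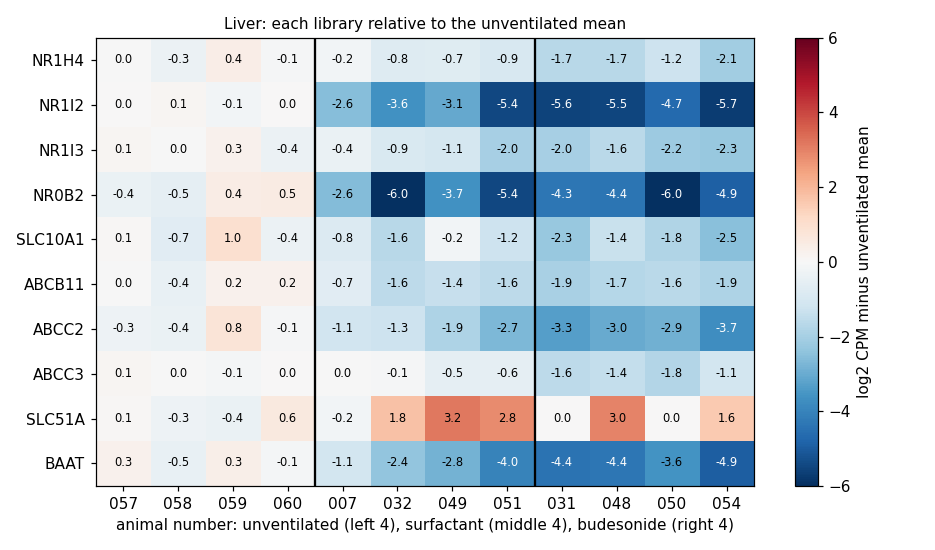
Log2 CPM (prior count of 2) of each gene in each liver library minus its mean over the 4 unventilated libraries, with red for higher and blue for lower and the value printed in each cell; columns are animals by group. Libraries with 0 counts of NR0B2 show the value set by the prior count. Animal 007 is the palest surfactant column, and 051 resembles the budesonide columns for NR1I2 and BAAT.

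Because most ventilated lambs were younger than the unventilated ones, the liver comparisons were also fitted with gestational age as a covariate. The ventilated males 007 and 054 were 127 days old, like unventilated 057 and 058. Each was the only animal of its group to differ in age, so age, sex and animal cannot be told apart within the ventilated groups. Between surfactant and unventilated lambs the number of members called then went from 8 to 1, and the share of all genes called, in either direction, from 41.1 to 8.31%. The member that kept its call was NR1I2, at -3.10 (log2; edgeR adjusted p = 0.0116). NR0B2 was at -2.82 (edgeR adjusted p = 0.0673), BAAT at -1.70 (0.118), ABCC2 at -1.22 (0.168), NR1I3 at -0.82 (0.233), ABCB11 at -0.78 (0.0909), NR1H4 at -0.38 (0.491) and SLC51A at 1.5 (0.53). Between budesonide and unventilated lambs 8 members stayed called (17.6% of all genes), and SLC10A1 was lost (edgeR adjusted p = 0.0764). Between budesonide and surfactant lambs, whose ages match, 5 stayed called (10.7% of all genes).

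Animals of 1 age and sex can be set side by side without a test, a comparison chosen after the values were seen. Among the 127-day males (057 and 058 unventilated, 007 surfactant, 054 budesonide), 8 of 10 members ran from both unventilated livers down to 007 and on to 054, a pattern found in 20.6% of all genes tested. NR1I2, for instance, stood at 72.0 and 77.8, then 12, then 1.29 CPM. The exceptions were NR1H4, for which 007 lay between the unventilated males, and SLC51A. Among the 126-day females, 4 members (NR1H4, ABCB11, ABCC2 and ABCC3) were lower in all 3 budesonide than in all 3 surfactant animals, as were 17.4% of all genes.

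The 4 lists of related genes that follow, compiled from general knowledge, cover the surroundings of the members in liver. For comparison with their counts, 19.5% of all genes were lower and 21.6% higher with surfactant. From surfactant to budesonide 7.85% of all genes were lower and 4.01% higher. Of the 14 genes of bile acid synthesis, 9 were tested. With surfactant 7 of them fell and none rose, with a median log2 change of -1.12. Among them were AMACR, the racemase of the side-chain pathway (-2.42 ± 0.40, log2, SE; edgeR adjusted p = 0.000717), AKR1D1, the steroid 5-beta reductase (-1.32 ± 0.20; 0.000446), and HSD17B4 of peroxisomal side-chain shortening (-1.27 ± 0.19; 0.000338). From surfactant to budesonide none of the 9 was called (median -0.20). Against unventilated lambs 7 were lower with budesonide, where 23.7% of all genes were.

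Of the 18 other transporters of bile acids, bile lipids and organic anions, 13 were tested. With surfactant 7 fell and 1 rose, and from surfactant to budesonide 6 fell and none rose, with medians of -0.82 in both comparisons. SLC22A7, a basolateral organic anion carrier, fell in both steps, by 2.07 ± 0.24 (log2, SE; edgeR adjusted p = 6.51e-05) and by 1.29 ± 0.23 (0.00596). ABCG8, which exports sterols into bile together with ABCG5, fell by 1.86 ± 0.23 with surfactant (edgeR adjusted p = 0.000114). ATP8B1, a canalicular phospholipid flippase, fell by 1.36 ± 0.29 with budesonide (edgeR adjusted p = 0.0117). ABCC6, a relative of ABCC2 and ABCC3, rose by 1.98 ± 0.20 with surfactant (edgeR adjusted p = 2.81e-05) and fell by 1.03 ± 0.20 from surfactant to budesonide (0.00755).

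Of 20 partners and regulators of the receptors, 17 were tested. With surfactant 6 rose and 7 fell (median -0.44), and from surfactant to budesonide 2 fell. The nuclear receptor NR5A2, which binds NR0B2, rose by 2.23 ± 0.37 (log2, SE; edgeR adjusted p = 0.000643). The coactivator PPARGC1A rose by 1.92 ± 0.31 (edgeR adjusted p = 0.000534) and the oxysterol receptor NR1H2 by 1.52 ± 0.24 (0.000516). These 3 calls were lost with age as a covariate (edgeR adjusted p = 0.0984, 0.061 and 0.0641). FGFR4, the hepatic receptor for the intestinal bile acid signal, fell from surfactant to budesonide by 1.51 ± 0.33 (edgeR adjusted p = 0.0141), a call lost in the fit of both ventilated groups alone (0.0519). The coactivator NCOA2 fell by 0.43 ± 0.12 (edgeR adjusted p = 0.0373), a call lost under 8 of 14 alternatives.

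Of 19 genes listed as drug-metabolism targets of NR1I2 and NR1I3, a list that also holds TAT, 9 were tested. With surfactant 5 fell and 2 rose (median -1.35), and from surfactant to budesonide 1 fell and 1 rose (median 0.14). ALDH1A1, an aldehyde dehydrogenase, fell by 2.27 ± 0.18 with surfactant (log2, SE; edgeR adjusted p = 6.09e-06), while POR, the electron donor of the cytochromes P450, rose by 1.31 ± 0.17 (0.000166). UGT1A6, a glucuronosyltransferase, rose by 1.21 ± 0.18 with surfactant (edgeR adjusted p = 0.000354) and fell by 1.05 ± 0.18 from surfactant to budesonide (0.00466). UGT1A genes share exons, so reads may be divided among them. The 1 listed gene that rose from surfactant to budesonide was TAT, a tyrosine aminotransferase that glucocorticoids induce. TAT rose by 1.80 ± 0.51 (edgeR adjusted p = 0.0405), a call lost under 9 of 14 alternatives. Its means were 382 CPM in unventilated, 62.0 in surfactant and 215 in budesonide livers. Budesonide animal 054, at 57.8 CPM, lay inside the surfactant range.

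From unventilated to budesonide lambs, 8 of the 13 other transporters tested were lower and 1 was higher. Of the 17 partners 8 were lower and 5 higher, and of the 9 drug-metabolism genes 3 were lower and 1 higher. Of all genes, 23.7% were lower and 23.3% higher in this comparison.

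The genes whose liver pattern was most like that of a receptor were found by the root mean square difference of centred log2 CPM over the 12 liver libraries, among 15259 genes with a mean of at least 1 CPM. For NR1I2 they were SEC16B (0.331), RNF43 (0.497) and SSTR5 (0.544). SEC16B had means of 72.1, 9.22 and 1.65 CPM in unventilated, surfactant and budesonide livers, where NR1I2 had 71.7, 6.94 and 1.71. For NR1I3 they were TCAF1 (0.197), LIMS2 (0.248) and IQSEC1 (0.251). For NR0B2 they were RNF43 (0.777), CEBPA (0.848) and GPAM (0.892), none of them close. These distances describe the libraries and share their depth and grouping.

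In PVWM 5 of the 10 members were at or near 0. NR0B2 had 1 count in all 12 libraries together. NR1I2 had 0 to 4 counts per library and ABCB11 1 to 12. SLC51A had 0, 3, 1 and 1 counts in unventilated, 6, 8, 5 and 5 in surfactant and 11, 4, 5 and 8 in budesonide animals. NR1H4 had 1, 3, 0 and 1 counts in unventilated, 0, 1, 0 and 0 in surfactant and 4, 4, 2 and 5 in budesonide animals. These 5 did not pass the filter and were not tested within PVWM. NR1I3 was the member with the most PVWM counts, at 15.3 to 18.6 CPM over all 12 libraries, and no change was called (surfactant against unventilated 0.19 ± 0.08, log2, SE; edgeR adjusted p = 0.285). TOMM40L, which overlaps it, had PVWM means of 38.6, 37.4 and 36.8 CPM, and there were 0.353 to 0.525 NR1I3 counts per TOMM40L count.

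Of the 5 members tested in PVWM, none was called between budesonide and surfactant lambs by edgeR or by DESeq2, and none had an unadjusted p under 0.05. Of all 18616 genes, 0.978% were called there, and 2217 had an unadjusted p under 0.05. With surfactant 1 member was higher than in unventilated lambs (all genes, 1.35% higher), and with budesonide 1 was higher (all genes, 4.35% higher), ABCC2 in both cases. At an unadjusted p under 0.05 there were 4 of the 5 members with surfactant and 2 with budesonide against unventilated lambs. Of all 18616 genes, 2742 and 4065 passed that limit in the same comparisons. In these comparisons 3 and 2 members were higher without overlap, where 4.7 and 9.08% of all genes were. The raw counts of ABCC2 were 8, 7, 8 and 8 in unventilated, 12, 23, 24 and 28 in surfactant and 15, 24, 21 and 15 in budesonide animals. No ventilated animal was as low as an unventilated one, at 0.449 to 0.501 CPM without ventilation, 0.728 to 1.75 with surfactant and 0.871 to 1.39 with budesonide. The changes were 1.49 ± 0.32 (log2, SE; edgeR adjusted p = 0.0295) and 1.18 ± 0.32 (0.0402). In the same tissue 7 oligodendrocyte markers summed to 908 to 2073 CPM in unventilated, 940 to 12196 in surfactant and 1361 to 2820 in budesonide animals. The 5 astrocyte markers summed to 3611 to 4525, 5076 to 5864 and 4571 to 5719 CPM, with every ventilated animal above every unventilated one. In both comparisons against unventilated lambs 1 astrocyte marker was called higher, and with budesonide 1 was called lower. The part of either cell type in the ABCC2 values was not tested. Both ABCC2 calls were lost, under 10 and 12 of 14 alternatives, with the highest adjusted p at 0.845 and 0.67, both with age as a covariate. Without single animals the adjusted p of the surfactant change was 0.0635 (032), 0.0808 (049), 0.0896 (051), 0.0701 (057), 0.089 (058), 0.0856 (060) and 0.0988 (061), and the budesonide call was lost without any 1 of its 8 animals.

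**Figure D5:**
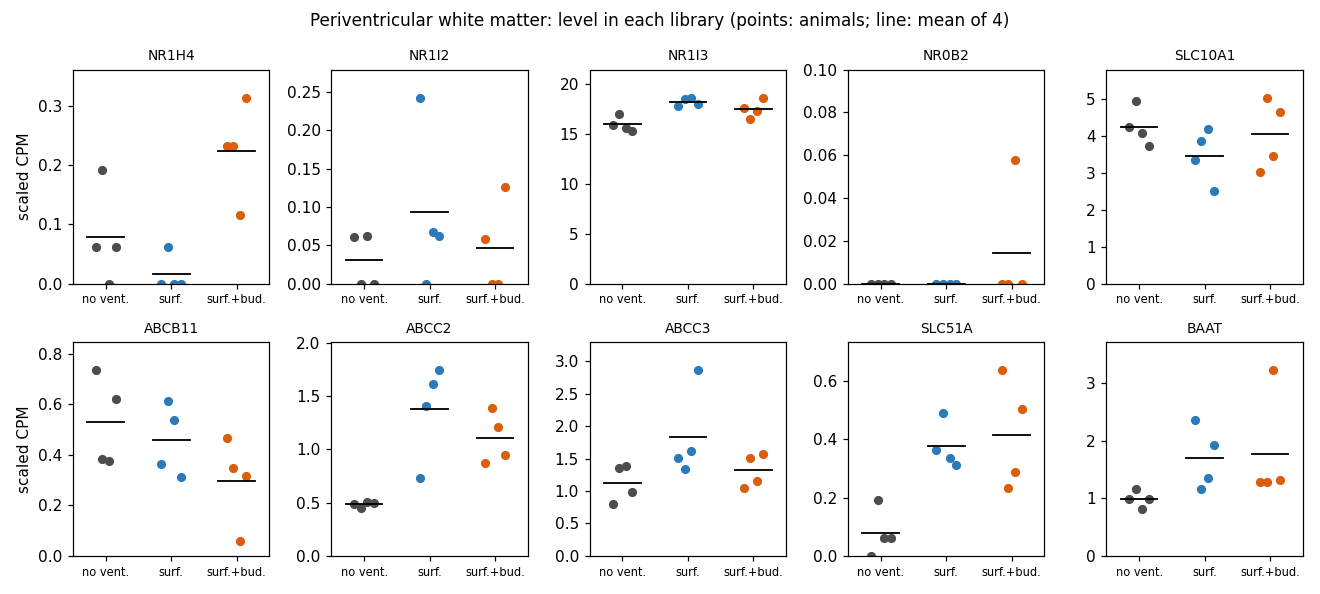
Scaled CPM (linear axis) of the 10 genes in each PVWM library, by group. Points are animals and lines are means of 4. NR0B2, NR1I2 and NR1H4 stay under 0.35 CPM, NR1I3 stays between 15.3 and 18.6 CPM, and ABCC2 is lowest in the 4 unventilated animals.

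The difference between the liver change and the PVWM change was tested in 1 fit of all 24 libraries, for the 5 members that passed the filter in both tissues. NR1H4, NR1I2, NR0B2, ABCB11 and SLC51A entered that fit through their liver counts and are not read. For surfactant against unventilated 4 of the 5 differed between the tissues, and for budesonide against unventilated all 5 did, where 30.9 and 35.6% of the 15458 genes tested in both tissues differed. For budesonide against surfactant none of the 5 was called by edgeR (genes tested in both tissues, 4.15%), although all 5 had an unadjusted p under 0.05. The share of the genes tested in both tissues at that unadjusted limit was not obtained. Without surfactant animal 051, 4 were called in that comparison, where 5.98% of these genes were.

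For surfactant against unventilated, liver minus PVWM was -3.10 ± 0.52 for ABCC2 (log2, SE; edgeR adjusted p = 0.000189), -2.97 ± 0.68 for BAAT (0.00282), -1.13 ± 0.30 for NR1I3 (0.00738) and -0.92 ± 0.33 for ABCC3 (0.0457). With the animal as a replicate block, for the 11 animals that gave both tissues, the ABCC3 call was lost (edgeR adjusted p = 0.145). For budesonide against unventilated the differences were -5.06 ± 0.69 for BAAT (log2, SE; edgeR adjusted p = 1.3e-05), -4.38 ± 0.53 for ABCC2 (3.51e-06), -2.10 ± 0.30 for NR1I3 (2.4e-05), -1.88 ± 0.47 for SLC10A1 (0.00409) and -1.62 ± 0.34 for ABCC3 (0.00107).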

How the data were processed

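The deposited tables hold whole-number gene counts, as the authors made them, of 12 libraries per tissue. Per the submitters' processing notes the tools were Bowtie2, featureCounts and edgeR; versions, strand setting and genome build are not given in the sources used here. Per the labels, RNA was extracted with Trizol and selected by poly-A. Groups, ages, sexes and animal numbers come from the labels.

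The members and gene lists were chosen with earlier results of these data known, and list genes were named by smallest adjusted p (up to 3 per list and comparison). BAAT was matched by RefSeq gene ID (assembly ARS-UI_Ramb_v3.0); no coordinates are given, because the build of the counts is not given.

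Calculations used R 4.3.3, edgeR 4.0.16 and DESeq2 1.42.0. Genes were kept by filterByExpr (16824 in liver, 18616 in PVWM, 20010 in the fit of both), scaled with edgeR's default TMM factors, and fitted in 1 robust quasi-likelihood model of all groups. Adjusted p (Benjamini-Hochberg) covers all genes tested, with a threshold of 0.05. The SE was obtained as the size of the log2 change over the root of its F statistic. Biological coefficients of variation were 0.304 (liver) and 0.197 (PVWM). The fit was also run on simulated data, whose outcome is not given here and is not used as support. Alternatives were median-ratio scaling, no filter, the compared groups alone, age or sex as a covariate, DESeq2, leaving out each animal, and, across tissues, the animal as a replicate block. Once centred on group means, 11 pairs of libraries from the same animal had correlations of 0.0795 to 0.251 (median 0.132), against a median of -0.0119 for different animals; the pairing comes from the animal numbers. Sex was not given for liver animal 060 and PVWM animal 061. The fits with sex as a covariate took 060 as female, its label in PVWM, and left out 061.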

Additional observations from a re-analysis of the deposited data

Results flagged for a closer look

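In 4 of 58 groups of 4 animals with any spread, 1 animal lay outside Dixon's 95% limit, where chance would give about 5% of groups of continuous values. That share does not apply to 2 of the 4, whose group held a single count: any such group passes the limit. Budesonide animal 050 was the high one for NR1I2 in liver (2.68 CPM, the others 1.29 to 1.49), for BAAT in PVWM (3.23 CPM, the others 1.27 to 1.32) and for NR0B2 in PVWM (0.0577 CPM, which is 1 count). Surfactant animal 032 was the high one for NR1H4 in PVWM (0.0612 CPM, also 1 count).

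The change in liver differed from that in PVWM, by the test of the difference in the fit of both tissues, for these of the 5 members that passed the filter in both tissues. Between surfactant and unventilated lambs, liver minus PVWM was -3.10 for ABCC2, -2.97 for BAAT, -1.13 for NR1I3 and -0.92 for ABCC3 (log2). Between budesonide and unventilated lambs it was -5.06 for BAAT, -4.38 for ABCC2, -2.10 for NR1I3, -1.88 for SLC10A1 and -1.62 for ABCC3. Most ventilated lambs were younger than the unventilated ones in both tissues, and the part of gestational age in these differences was not tested.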

How the results depend on the processing

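Over both tissues and their difference, 60 results of single members were tested (30 in liver, 15 in PVWM and 15 differences, for members that passed the filter in both tissues), of which 34 were called. Under every alternative run, 20 of these kept the call, 14 lost it under at least 1 and 0 reversed; of the 26 not called, 7 gained a call under at least 1. The number of members called in liver between budesonide and surfactant lambs was 6, fell to 3 in the fit of both groups alone and ranged from 3 to 6 without single animals (3 without budesonide animal 031 or 048). The share of all genes called fell as well, from 11.9% to 5.51% with both groups alone, 5.89% without 031 and 6.17% without 048. Between surfactant and unventilated livers the number of members called went from 8 to 1 with age as a covariate (all genes, 41.1 to 8.31%). Without single animals it was 6 to 8 (all genes, 32.4 to 47.4%). In PVWM the 1 call between surfactant and unventilated lambs became 0 with the compared groups alone, with age and with sex, and 0 to 1 without single animals. All genes called went from 2.05% to 0.954, 0.0806 and 0.516% in these 3 fits, and to 0.921 to 2.67% without single animals. The PVWM fits with sex lacked animal 061, whose removal alone also lost the call. The 1 call between budesonide and unventilated PVWM became 0 with no filter, with age, with sex, with DESeq2 and without each single animal (0 to 0). All genes called there went from 8.06% to 5.24, 1.86, 3.56 and 11.4%, and to 5.31 to 6.5% without single animals. With the animal as a replicate block, the members that differed between tissues numbered 0 for budesonide against surfactant, 3 for surfactant against unventilated and 5 for budesonide against unventilated (0, 4 and 5 without the block). Of the genes tested in both tissues, 2.68, 22.7 and 27.7% differed with the block, and 4.15, 30.9 and 35.6% without it. Without single animals the members that differed numbered 0 to 4 (4 without surfactant animal 051), 3 to 4 and 5 to 5. The shares of genes were then 1.72 to 7.11, 23.6 to 37.1 and 28.6 to 32.7%. The PVWM change of BAAT between budesonide and surfactant lambs, 0.06 on the log2 scale, ranged from -0.39 to 0.26 without single animals, and that of SLC10A1 between budesonide and unventilated lambs, -0.07, from -0.20 to 0.051; neither was called. The cause of these changes was not tested. With PVWM counts near 0, 5 members did not pass the filter there. Changes of those members within PVWM were therefore not tested in the main fit.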
